A study of Homo sapiens with 12 samples.

Results

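The activating transcription factor ATF4 and 9 genes of the amino acid stress response named with it were followed in H295R, a human cell line derived from an adrenocortical carcinoma and able to make steroid hormones. The set held ATF4, TRIB3, DDIT3, CHAC1, SESN2, DDIT4, PHGDH, PSAT1, ASNS and the noncoding RNA VLDLR-AS1. They were taken by name from the deposited table, 10 of its 60670 genes, and all 10 were among the 15916 genes with enough counts to test. Strand-specific libraries of total RNA came from unmodified H295R cells (WT), from H295R cells with DLK1 knocked down (KD) and from H295R cells over-expressing DLK1 (OE), 4 libraries a group, numbered as replicates 3 to 6. All 3 groups are the same cell line, grown to subconfluence before RNA was extracted. How the knockdown and over-expression were made, and whether a group was 1 clone, is not given in the sources used here. The labels name no group of cells that carried a control construct, so for every difference from WT the level of DLK1 and the manipulation itself cannot be told apart. The stated aim was to compare the transcriptome at different DLK1 levels, DLK1 being a membrane protein of the Notch ligand family.

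ATF4 is the main transcription factor of the integrated stress response. Kinases that sense amino acid shortage, unfolded protein, heme lack or viral RNA phosphorylate the translation factor eIF2α, which lowers protein synthesis as a whole but favours translation of the ATF4 message, so that ATF4 protein can rise with little change of its RNA. ATF4 protein then pairs with C/EBP family proteins at composite DNA elements and raises genes for amino acid synthesis, transport and tRNA charging, and with them feedback genes such as TRIB3 and DDIT3. Only RNA was measured here.

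The promoter windows of 3 genes are shown because they hold, or in the case of TRIB3 lack, the core letters of that composite element in the window read. They cover the 250 bases before the transcription start that RefSeq gives on GRCh38.p14, at chr20:381045-381294 on the plus strand for TRIB3, chr7:97872409-97872658 on the minus strand for ASNS and chr15:40953221-40953470 on the plus strand for CHAC1. Each is written along the strand of its gene, and capitals mark a match to TGATGNAA on either strand.
TRIB3: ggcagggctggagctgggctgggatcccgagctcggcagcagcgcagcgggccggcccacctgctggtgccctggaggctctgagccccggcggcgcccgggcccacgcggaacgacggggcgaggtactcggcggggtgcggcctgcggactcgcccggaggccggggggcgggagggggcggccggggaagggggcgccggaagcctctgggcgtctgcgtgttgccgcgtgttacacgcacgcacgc
ASNS: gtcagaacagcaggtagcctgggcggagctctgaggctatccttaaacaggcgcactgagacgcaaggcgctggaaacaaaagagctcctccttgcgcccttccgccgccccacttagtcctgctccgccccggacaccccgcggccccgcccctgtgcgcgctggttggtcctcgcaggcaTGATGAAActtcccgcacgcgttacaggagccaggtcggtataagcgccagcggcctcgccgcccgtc
CHAC1: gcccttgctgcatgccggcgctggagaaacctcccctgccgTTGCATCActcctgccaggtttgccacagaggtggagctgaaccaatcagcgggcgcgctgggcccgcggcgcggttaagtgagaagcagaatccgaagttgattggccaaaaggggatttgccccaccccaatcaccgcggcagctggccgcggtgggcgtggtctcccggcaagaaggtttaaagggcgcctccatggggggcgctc

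The match in ASNS began 68 bases before the start. The match in CHAC1 lay on the opposite strand and began 209 bases before the start. In all, 2 of the 10 genes held a match in a RefSeq promoter window, against 1217 of 27305 genes in the whole promoter table, which is 4.46%. For genes with several starts all their windows were searched. Each window searched ran on past the start, the first of TRIB3 covering chr20:381045-381344. None of the 3 windows of TRIB3 held the letters. A match describes letters only, and its absence says only that these letters are not in this window.

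The libraries held 9303266 to 13797397 counts. DLK1 itself lay at 2490 to 2796 CPM (counts scaled to a common library size with TMM factors) in WT, 1238 to 1487 in KD and 3020 to 3350 in OE, in the order the labels give. All 7 adrenocortical markers looked at were expressed, among them the steroidogenic factor NR5A1, and their summed level was 1590 to 1670 CPM in WT, 1270 to 1480 in KD and 1510 to 1630 in OE. Of the fibroblast markers 2 of 5 had enough counts to test, with all 5 summing to at most 22.8 CPM in any library. Chromaffin markers summed to at most 4.56 CPM with TH and DBH at 0, endothelial markers to at most 1.09 CPM with CDH5 at 0, and immune markers to at most 0.287 CPM with CD3E at 0. One library stood apart from its group. KD replicate 3 differed from the other KD libraries with a chi-square per degree of freedom of 6.06 to 10.77 over genes, where the other pairs of a group gave 2.7 to 4.18, and 4.99% of its counts were mitochondrial against 6.65% to 8.37% in the other 11 libraries. Where leaving it out changed the call of a gene described here, the value without it is given. Whether the replicates came from separate cultures is not stated in the labels, and p-values here reflect the spread between libraries, which may be technical.

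Levels of different genes were compared as RPKM, the CPM divided by the length of a gene's merged exons in kilobases. In WT, PSAT1 and ATF4 had the highest RPKM of the 10, at 62.3 ± 4.99 and 61.1 ± 4.37 (SD, n = 4), and their libraries overlapped. PHGDH followed at 25.3 ± 0.618 RPKM, above every library of the genes after it. The order of these 3 depends on the length used. Before division by length PHGDH was highest, at a mean of 232.9 CPM against 153.6 for ATF4 and 136.3 for PSAT1. Its merged exons hold 9217 bases, against 2514 for ATF4 and 2188 for PSAT1. DDIT3, TRIB3 and SESN2 formed a middle range at 8.83 ± 1.2, 7.14 ± 0.503 and 6.53 ± 0.71 RPKM, and neighbours in that order overlapped. CHAC1 at 1.45 ± 0.579 RPKM and DDIT4 at 1.39 ± 0.594 RPKM overlapped as well. ASNS, the classical amino acid response gene that makes asparagine, had a low value of 0.295 ± 0.0534 RPKM, above that of only 5.81% of the genes tested, whereas PSAT1 lay above 96.2% of them. ASNS shares 1985 exonic bases with another gene on its strand. How reads in shared bases were counted is not given in the sources used here, so the level of ASNS may be understated. VLDLR-AS1 was lowest at 0.0724 ± 0.0666 RPKM.

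TRIB3, a pseudokinase that ATF4 and DDIT3 induce and that in turn binds and dampens ATF4 and the kinase AKT, was the one gene of the 10 called higher than WT in both KD and OE. Its gene, ENSG00000101255, spans chr20:362835-397559 on the plus strand of GRCh38 in GENCODE 29, and so contains the RefSeq promoter window printed above. In replicates 3, 4, 5 and 6 it had 24.3, 26.9, 24.1 and 22.7 CPM in WT, 44.6, 35.7, 36.5 and 36.6 CPM in KD, and 29.9, 37.2, 34.5 and 36.9 CPM in OE. Every KD and every OE library lay above every WT library, while KD and OE overlapped, with KD replicate 3 the highest library of all and OE replicate 3 the lowest of the 8 changed libraries. The means were 24.5 ± 1.73 CPM in WT, 38.3 ± 4.21 CPM in KD and 34.6 ± 3.39 CPM in OE (SD, n = 4).

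By edgeR's quasi-likelihood test with Benjamini-Hochberg adjustment over all genes, TRIB3 was 1.565-fold higher in KD than in WT, a log2 difference of 0.65 ± 0.09 (SE) with an adjusted p of 1.33e-06. In OE it was 1.413-fold higher than in WT, a log2 difference of 0.50 ± 0.09 with an adjusted p of 0.000259 by the same edgeR test. These comparisons share the WT libraries. Between OE and KD the log2 difference was -0.15 with a 95% interval of -0.32 to 0.03 and an adjusted edgeR p of 0.321, so a difference between them was not shown, and neither was equality. Without KD replicate 3 the rise in KD was 0.56 ± 0.10 on the log2 scale, with an adjusted edgeR p of 1.88e-05. Over all 12 ways of leaving out 1 library, the log2 difference of TRIB3 stayed between 0.56 and 0.69 in KD and between 0.46 and 0.56 in OE, and it was called each time.

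**Figure D1:**
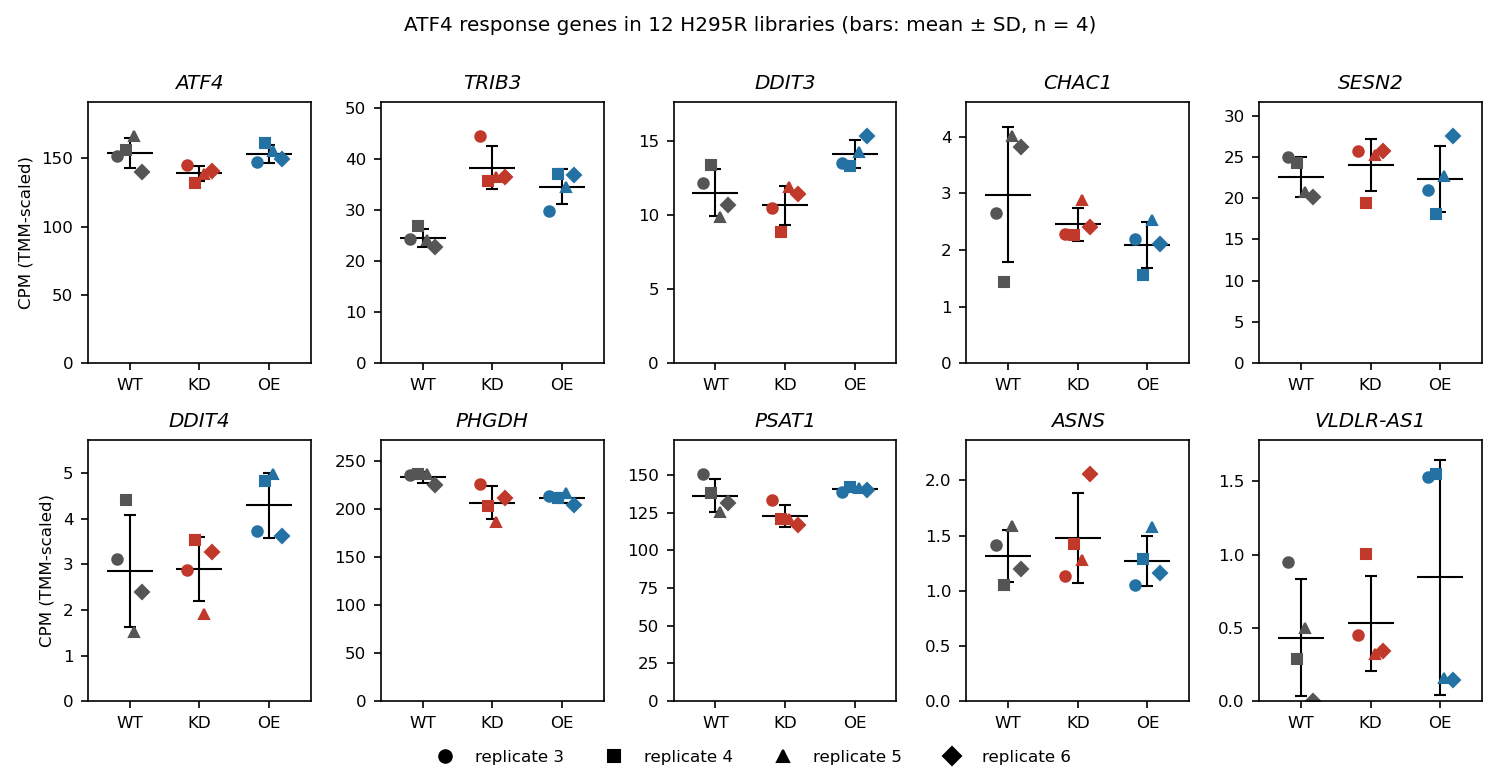
Each panel plots 1 gene of the set, with the level in CPM (TMM-scaled) on the vertical axis from 0 and the groups WT, KD and OE on the horizontal axis. Symbols are single libraries by replicate number, and bars are the mean ± SD of 4 libraries. TRIB3 is the panel in which all KD libraries (35.7 to 44.6 CPM) and all OE libraries (29.9 to 37.2 CPM) lie above all WT libraries (22.7 to 26.9 CPM).

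In KD against WT, 1 of the 10 genes was called higher (TRIB3) and 1 lower (PHGDH), against 3.84% called higher and 5.22% called lower, or 9.06% in either direction, among all genes tested. The median log2 difference of the 10 was -0.04, beside 0.0050 for all genes. In OE against WT, 1 was called higher (TRIB3) and 0 lower, against 2.13% and 2.87%, or 5.0% in either direction, of all genes, with a median of 0.02 beside 0.0024 for all genes. DESeq2 also called 0 lower, and 1 was lower at an unadjusted edgeR p under 0.05. PHGDH was called lower in OE when OE and WT were fitted alone. In OE against KD, 2 were called higher (PSAT1 and DDIT3) and 0 lower, against 7.27% and 6.55%, or 13.8% in either direction, of all genes, with a median of 0.09 beside -0.0023, and 0 were lower by DESeq2 or at an unadjusted edgeR p under 0.05. Comparing the mean of KD and OE with WT, 1 was called higher (TRIB3) and 1 lower (PHGDH), against 2.21% and 3.24%, or 5.45% in either direction. The number of genes called lower in KD varied from 0 to 3 as single libraries were left out, being 0 without KD replicate 5 and 3 without KD replicate 3, when ATF4 and PSAT1 joined PHGDH. The 2 called higher in OE against KD fell to 0 without KD replicate 6.

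**Figure D2:**
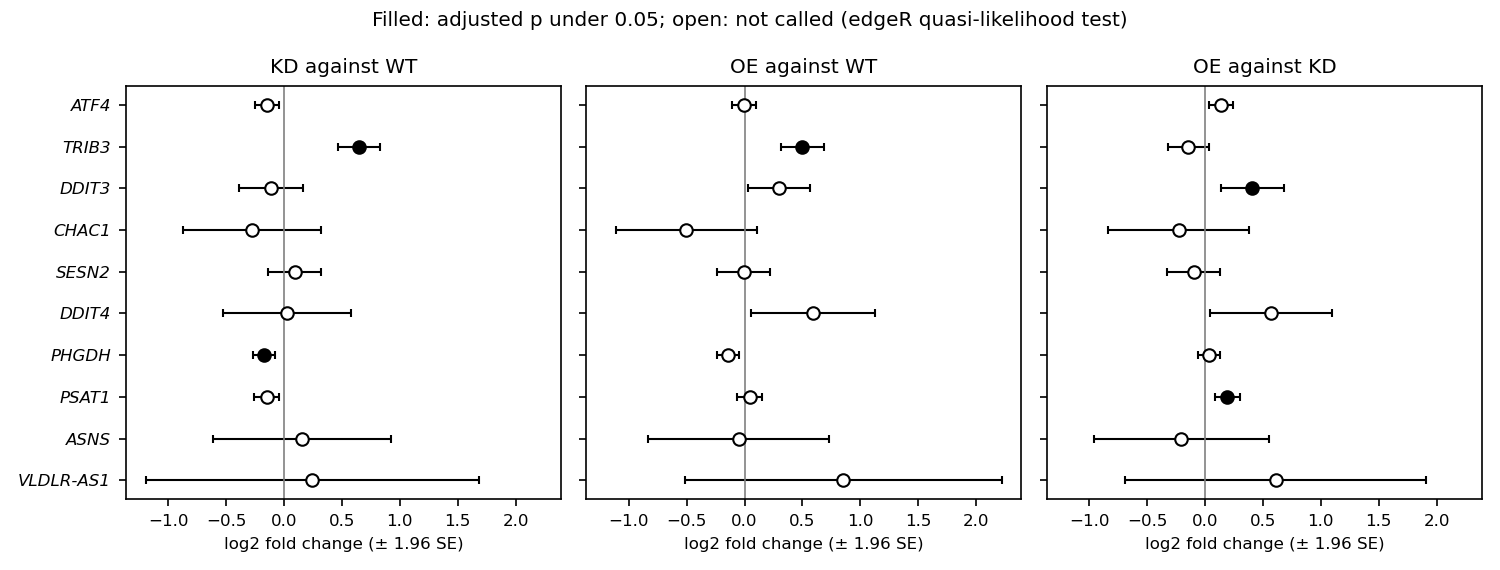
Each row is a gene of the set and each panel a comparison of a pair of groups, named above it. Points are log2 fold changes from the fit of all 12 libraries, lines are 95% intervals from the standard error, and filled points were called at an adjusted p under 0.05. TRIB3 is filled in both comparisons with WT, at 0.65 and 0.50, and the genes with the fewest counts, ASNS and VLDLR-AS1, have the widest lines.

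ATF4, at chr22:39519695-39522685 on the plus strand, did not follow TRIB3 as RNA. It had 152.0, 155.8, 166.5 and 139.9 CPM in WT replicates 3 to 6, 145.3, 132.2, 138.2 and 140.6 CPM in KD, and 147.0, 161.1, 155.2 and 149.2 CPM in OE. KD libraries overlapped with WT through WT replicate 6, the lowest WT library, and all 4 lay under all 4 OE libraries. The log2 difference in KD against WT was -0.14 ± 0.05 with an adjusted edgeR p of 0.0751, and in OE against WT it was -0.01 with a 95% interval of -0.11 to 0.10. For OE against KD it was 0.14 ± 0.05 with an adjusted edgeR p of 0.0682. The difference of KD from WT passed the edgeR threshold without WT replicate 6 (adjusted p 0.0269) or without KD replicate 3 (adjusted p 0.041), and that of OE from KD without KD replicate 3 (adjusted p 0.0376).

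Within groups, TRIB3 and ATF4 were compared over libraries after subtracting each group's mean from the log2 CPM. Pearson's r was 0.56 (n = 12, exact permutation within groups, two-sided p 0.0589, adjusted p 0.265 over the 9 genes compared with TRIB3). Spearman's rho was 0.69 (exact permutation p 0.026, adjusted p 0.126). Without KD replicate 3 and OE replicate 3, the libraries farthest from the others in TRIB3 once group means were subtracted, r was 0.42. These libraries were picked after the values were seen, in place of WT replicates 5 and 6, which are farthest from the median before group means are subtracted and without which r was 0.73. None of the 9 genes passed the adjustment, and 1 of 9 had an unadjusted exact permutation p under 0.05 for r, which was CHAC1 with r = -0.52 (p 0.0446, adjusted p 0.265) and, by ranks, rho = -0.51 (p 0.107). For CHAC1 r was -0.86 without KD replicate 3 and OE replicate 3, and -0.47 without WT replicates 5 and 6. By ranks PSAT1, like ATF4, had an unadjusted exact permutation p under 0.05, with rho = 0.66 (p 0.028, adjusted p 0.126). Its r was 0.50 (exact permutation p 0.0934, adjusted p 0.28). Without KD replicate 3, which is the highest KD library for both TRIB3 and ATF4, r for ATF4 was 0.49 (exact permutation, adjusted p 0.54), and r for PHGDH changed from 0.44 to -0.02.

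**Figure D3:**
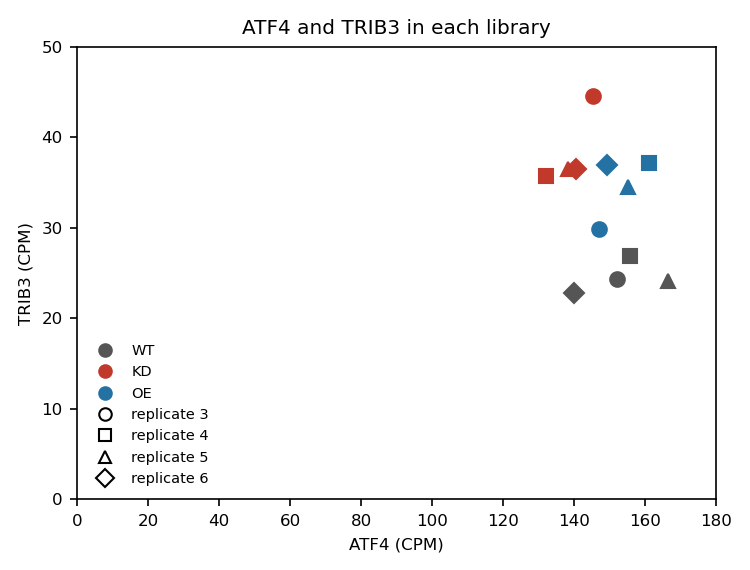
Each point is 1 library, with ATF4 in CPM on the horizontal axis and TRIB3 in CPM on the vertical axis, coloured by group and shaped by replicate number. The groups separate along the TRIB3 axis, WT at 22.7 to 26.9 CPM and the other 8 libraries at 29.9 to 44.6 CPM, while ATF4 ranges from 132.2 to 166.5 CPM with WT and OE libraries interleaved.

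Of the other stress effectors, DDIT3, a C/EBP family factor also known as CHOP that promotes cell death under lasting stress, differed between OE and KD. It lies at chr12:57516588-57521737 on the minus strand. Its levels were 12.2, 13.4, 9.88 and 10.7 CPM in WT, 10.5, 8.89, 11.9 and 11.4 CPM in KD, and 13.6, 13.3, 14.3 and 15.4 CPM in OE. All OE libraries lay above all KD libraries, and OE overlapped with WT only through WT replicate 4. The log2 difference of OE from KD was 0.41 ± 0.14 with an adjusted edgeR p of 0.0356, and that of OE from WT was 0.30 with a 95% interval of 0.03 to 0.57 and an adjusted edgeR p of 0.243. The call of OE against KD was lost in 7 of 20 other settings, with no filter on low counts (adjusted p 0.0628) or on leaving out replicate 3, 4 or 6 of KD or replicate 3, 5 or 6 of OE (adjusted p 0.0506 to 0.129). DDIT3 shares 355 exonic bases with MARS1 on the opposite strand, which had 30258 counts in all, and whether counting used strand is not given in the sources used here. MARS1 itself differed by 0.04 ± 0.04 on the log2 scale between OE and KD (adjusted edgeR p 0.612).

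CHAC1, an enzyme that degrades glutathione, lies at chr15:40952962-40956519 on the plus strand and ranged from 1.44 to 4.02 CPM in WT, 2.26 to 2.88 CPM in KD and 1.55 to 2.53 CPM in OE. WT replicate 4 was the lowest library of all 12 and WT replicate 5 the highest, so the WT group enclosed both others. The log2 difference was -0.28 in KD and -0.50 in OE against WT, with 95% intervals of -0.88 to 0.32 and -1.11 to 0.10. SESN2, a sestrin that restrains mTORC1 when leucine is scarce, lies at chr1:28259527-28282491 on the plus strand and ranged from 20.1 to 25.0 CPM in WT, 19.4 to 25.8 CPM in KD and 18.1 to 27.6 CPM in OE. Its groups overlapped in every comparison, and the log2 difference was 0.09 in KD (95% interval -0.14 to 0.32) and -0.01 in OE (95% interval -0.24 to 0.22). DDIT4, another mTORC1 inhibitor known as REDD1, lies at chr10:72273920-72276036 on the plus strand and ranged from 1.51 to 4.4 CPM in WT, 1.92 to 3.52 CPM in KD and 3.63 to 4.98 CPM in OE. All OE libraries exceeded all KD libraries, with a log2 difference of 0.57 and a 95% interval of 0.04 to 1.09, but the difference of OE from WT (0.59, adjusted edgeR p 0.241) did not pass the threshold and neither did that of OE from KD.

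Of the serine synthesis enzymes, PHGDH was called lower in KD than in WT and PSAT1 higher in OE than in KD. PHGDH makes the first step from the glycolytic intermediate phosphoglycerate towards serine. Its gene is annotated at chr1:119648411-119744226 on the plus strand, and it had 234.9, 236.5, 235.8 and 224.4 CPM in WT, 226.2, 203.5, 185.9 and 210.9 CPM in KD, and 213.7, 211.0, 216.5 and 204.2 CPM in OE. All OE libraries lay under all WT libraries, and in KD the same held for every library but replicate 3, which lay just above WT replicate 6. PHGDH fell in KD by 0.17 ± 0.05 on the log2 scale (adjusted edgeR p 0.0127). In OE against WT the log2 difference was -0.14 ± 0.05 with an adjusted edgeR p of 0.0738. Leaving out KD replicate 5 ended the call in KD (log2 difference -0.13, adjusted p 0.088), while leaving out KD replicate 3 gave -0.22 (adjusted p 0.000596). The difference of OE from WT passed the edgeR threshold when those groups were fitted alone (adjusted p 0.0135), without KD replicate 3 (adjusted p 0.0331) or without KD replicate 5 (adjusted p 0.0407). For the mean of KD and OE against WT the difference was -0.16 ± 0.04 (adjusted edgeR p 0.0126), a call that ended on leaving out WT replicate 3 (adjusted p 0.0574), WT replicate 4 (adjusted p 0.0573) or WT replicate 5 (adjusted p 0.0657).

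PSAT1 makes the next step, a transamination that yields phosphoserine. It lies at chr9:78297143-78330093 on the plus strand and had 150.7, 138.0, 125.3 and 131.2 CPM in WT, 133.4, 120.9, 120.7 and 116.8 CPM in KD, and 138.9, 142.1, 141.4 and 139.8 CPM in OE. OE libraries lay close together and above all KD libraries, inside the range of WT. PSAT1 was higher in OE than in KD by 0.19 ± 0.06 on the log2 scale (adjusted edgeR p 0.0111), and this was lost on leaving out KD replicate 6 (adjusted p 0.0609). Against WT the log2 difference was -0.15 ± 0.06 in KD (adjusted edgeR p 0.0825, or 0.0198 without KD replicate 3) and 0.05 in OE with a 95% interval of -0.06 to 0.15.

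ASNS, whose promoter match is printed above, lies at chr7:97852118-97872542 on the minus strand. It ranged from 1.05 to 1.59 CPM in WT, 1.14 to 2.06 CPM in KD and 1.05 to 1.58 CPM in OE. The groups overlapped throughout, and the 95% intervals of the log2 difference, -0.61 to 0.92 in KD and -0.83 to 0.73 in OE against WT, leave changes as large as that of TRIB3 undetectable at these counts. ASNS shares 1985 exonic bases with ENSG00000284707 on the same strand, which had 132 counts in all. The antisense RNA VLDLR-AS1, at chr9:2421597-2643359 on the minus strand, was at 0 in WT replicate 6, which allows up to 0.326 CPM, and otherwise between 0.287 and 0.946 CPM in WT. It ranged from 0.32 to 1.01 CPM in KD and from 0.145 to 1.55 CPM in OE, where replicates 3 and 4 were high and replicates 5 and 6 low. VLDLR-AS1 shares 738 exonic bases with VLDLR on the opposite strand, a lipoprotein receptor gene that had 2719 counts in all. VLDLR was called in no comparison, at -0.17 in KD against WT with an adjusted edgeR p of 0.415.

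The neighbours of TRIB3 on chromosome 20 were looked at because earlier results of these data had shown shifts of genes on that arm, so their counts describe the region and test nothing. Within 1 Mb of the start of TRIB3, 15 other protein-coding genes were tested. In KD against WT, 7 of them were called higher and 0 lower, against 3.84% and 5.22% of all genes tested, with a median log2 difference of 0.20. The 7 became 3 without WT replicate 5 and 4 without WT replicate 4 or 6. TRIB3 lay 0.44 above that median and above 14 of the 15. In OE against WT 0 of the 15 were called in either direction by edgeR, against 2.13% and 2.87% of all genes. DESeq2 called 0 higher and 1 lower, and at an unadjusted edgeR p under 0.05 there were 3 higher and 2 lower. The median in OE was 0.12, with TRIB3 0.38 above it and above all 15. Between OE and KD, 0 were called higher by edgeR (0 by DESeq2 and 0 unadjusted) and 3 lower, against 7.27% and 6.55% of all genes, with a median of -0.09, and -0.15 when 2 Mb to each side were taken. The 3 became 2 without OE replicate 3, 5 or 6.

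The nearest tested neighbours differed from each other. NRSN2 ends 3175 bases before TRIB3 and had a log2 difference of 0.11 in KD (adjusted edgeR p 0.131) and -0.13 in OE (adjusted edgeR p 0.0827) against WT, and it was lower in OE than in KD by 0.23 (adjusted edgeR p 9.4e-05). RBCK1, a subunit of the linear ubiquitin ligase complex, begins 9939 bases after TRIB3 and rose in KD by 0.20 (adjusted edgeR p 0.01, or 0.0563 without WT replicate 4), with 0.12 in OE (adjusted edgeR p 0.25). How much of the difference of TRIB3 goes with its region was not tested.

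**Figure D4:**
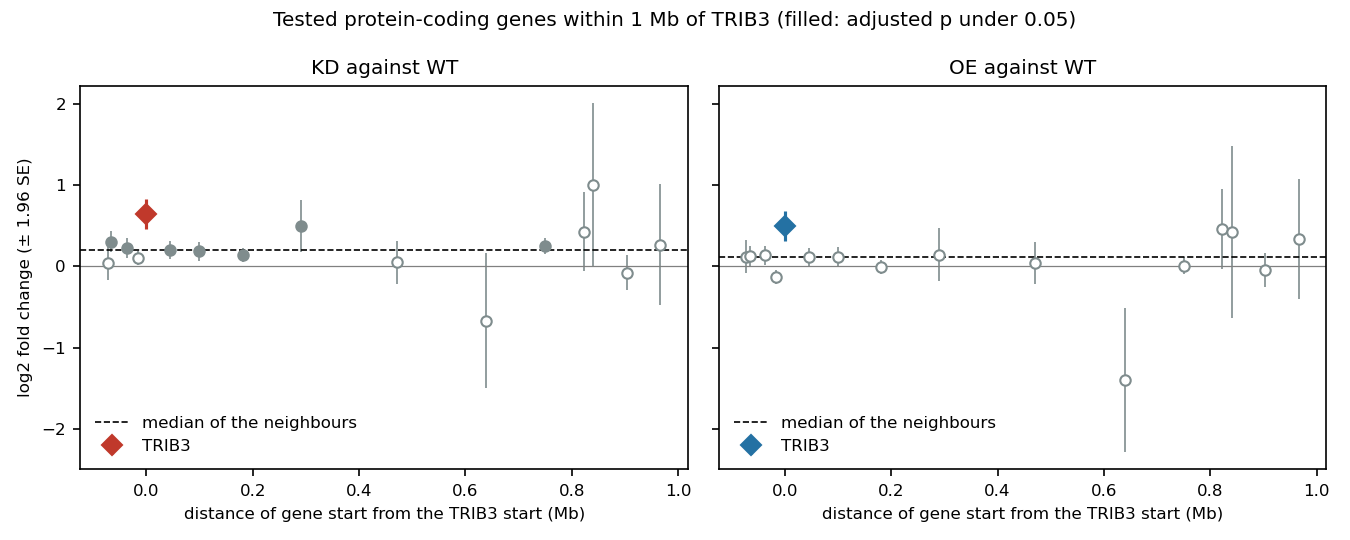
Points are TRIB3 (diamond) and the 15 other tested protein-coding genes whose start lies within 1 Mb, placed by the distance of their start from that of TRIB3 in Mb. The vertical axis is the log2 fold change with its 95% interval from the standard error, for KD against WT and for OE against WT, filled where the adjusted p was under 0.05. The dashed line is the neighbours' median, 0.20 in KD and 0.12 in OE, and TRIB3 lies above it in both panels.

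The wider ATF4 pathway was described with 8 lists of 70 genes, of which 66 were tested (BCAT1, STC2, GDF15 and ADM2 had too few counts). In KD against WT 8 were called higher and 6 lower, against 3.84% and 5.22% of all genes. In OE against WT 4 were called higher and 1 lower, against 2.13% and 2.87%. In OE against KD 5 were higher and 7 lower, against 7.27% and 6.55%. The median log2 difference of the 66 was 0.02 in KD and 0.01 in OE against WT, and -0.02 between OE and KD. In KD the 8 called higher became 5 without WT replicate 6 and the 6 called lower became 3 without WT replicate 5. In OE the 4 called higher became 1 without WT replicate 5, and the 1 called lower became 0 without WT replicate 4 or 5 or OE replicate 4 or 6, 2 without WT replicate 3 or KD replicate 3 or 5, and 3 without WT replicate 6. In OE against KD the 5 called higher became 2 without KD replicate 6 or OE replicate 4 and 3 without OE replicate 3, and the 7 called lower became 4 without KD replicate 3 or 6 or OE replicate 3, 4 or 5.

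All 6 genes of the wider lists that were lower in KD belonged to the list of 13 genes that holds aminoacyl-tRNA synthetases, the enzymes that charge tRNA with amino acids, and the tRNA exporter XPOT. AARS1, which charges alanine tRNA, had 190.7, 203.5, 195.4 and 197.0 CPM in WT, 173.4, 155.5, 168.5 and 175.0 CPM in KD, and 188.2, 182.3, 178.1 and 189.1 CPM in OE. All KD libraries lay under all OE libraries, and these under all WT libraries. AARS1 fell in KD against WT by 0.23 ± 0.05 on the log2 scale (adjusted edgeR p 0.000625), while OE against WT gave -0.09 (adjusted edgeR p 0.304). TARS1, for threonine, fell in KD by 0.22 ± 0.04 (adjusted edgeR p 0.0005) and EPRS1, for glutamate and proline, by 0.13 ± 0.03 (adjusted edgeR p 0.00492). IARS1, YARS1 and XPOT were also called lower in KD. That of XPOT was lost in 12 of 20 other settings (adjusted p 0.0523 to 0.135), that of YARS1 without any single WT library or KD replicate 4 or 6 (adjusted p 0.054 to 0.102), and that of IARS1 without WT replicate 5 (adjusted p 0.0597). Of all genes tested, 5.22% were called lower in KD and 2.87% in OE against WT. Over the list, 11 of 13 had a log2 difference under 0 in KD, with a median of -0.11 beside 0.0050 for all genes. In OE it was 10 of 13, with a median of -0.08 beside 0.0024 for all genes. The share of all genes under 0 was not counted. In OE 1 gene of the list was called lower, WARS1 (-0.23, adjusted edgeR p 0.0158). The call of WARS1 ended on leaving out WT replicate 4 or 5 or OE replicate 4 or 6 (adjusted p 0.0529 to 0.0684). The 6 calls in KD became 3 without WT replicate 5, with library sizes alone or with no filter on low counts. AARS1 and XPOT were higher in OE than in KD, at 0.13 (adjusted edgeR p 0.0479) and 0.14 (adjusted edgeR p 0.0117). That of AARS1 was lost in 13 of 20 other settings (adjusted p 0.0546 to 0.191), and that of XPOT without KD replicate 6 (adjusted p 0.0553) or OE replicate 4 (adjusted p 0.0787).

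The promoter of AARS1 holds the composite element letters at 187 bases before its start, on the opposite strand, and that of CEBPG, the C/EBP partner of ATF4, at 42 bases before its start. Stretches of 40 bases around each are shown to set beside ASNS and CHAC1, from RefSeq on GRCh38.p14 at chr16:70289670-70289709 on the minus strand and chr19:33374055-33374094 on the plus strand, with the match in capitals.
AARS1: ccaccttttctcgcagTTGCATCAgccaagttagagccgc
CEBPG: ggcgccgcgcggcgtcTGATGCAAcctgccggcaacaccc

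Of the 66 wider genes, 51 had a window in the RefSeq table, and 19 of these, or 37.3%, held the letters, against 4.46% of all genes in the table. Genes with and without a match were not tested against each other. Of all genes tested, edgeR called 3.84% higher and 5.22% lower in KD against WT, and 2.13% higher and 2.87% lower in OE against WT. In KD against WT 3 of the 19 were called higher and 3 lower, with a median log2 difference of 0.02. Of the 32 without a match 5 were called higher and 2 lower, with a median of 0.05. In OE against WT 0 of the 19 were called in either direction by edgeR (1 higher and 1 lower by DESeq2, 1 higher and 2 lower at an unadjusted edgeR p under 0.05), and 4 of the 32 higher and 1 lower. The lists were drawn up from known targets, so the share with a match is a property of the lists and not of these cells.

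Among the regulators of eIF2α, DELE1 and PPP1R15A were called. DELE1, which carries mitochondrial stress to the kinase EIF2AK1, was higher by 0.25 ± 0.08 in KD (adjusted edgeR p 0.0292) and by 0.30 ± 0.08 in OE (adjusted edgeR p 0.00945) than in WT. The KD call was lost on leaving out replicate 5 or 6 of WT or replicate 3 or 4 of KD (adjusted p 0.0522 to 0.143), and the OE call without WT replicate 5 or OE replicate 6 (adjusted p 0.0687 and 0.0944). PPP1R15A, the stress-induced phosphatase subunit that reverses eIF2α phosphorylation, rose in KD by 0.27 ± 0.07 (adjusted edgeR p 0.00742), with 0.16 in OE (adjusted edgeR p 0.203). Its levels were 48.6, 49.7, 56.3 and 48.6 CPM in WT and 64.3, 63.2, 60.5 and 57.8 CPM in KD, with no overlap. IMPACT, an inhibitor of the kinase EIF2AK4, was higher in OE than in KD by 0.21 (adjusted edgeR p 0.0426), a call lost in 9 of 20 other settings, among them leaving out KD replicate 3, 5 or 6 or OE replicate 3, 4 or 5 (adjusted p 0.0591 to 0.145). None of the 6 partner transcription factors was called against WT by edgeR, where 9.06% of all genes tested were called in KD and 5.0% in OE. At an unadjusted edgeR p under 0.05 there was 1 higher in KD and 1 higher in OE, and DESeq2 called 1 higher in OE. ATF3, a stress-induced repressor, came nearest in OE, at 0.73 ± 0.24 (adjusted edgeR p 0.0632), with every OE library (4.27 to 5.63 CPM) above every WT library (2.46 to 3.73 CPM). ATF3 passed the threshold in 4 of 20 other settings. These were a minimum count of 50 (adjusted edgeR p 0.0447), OE and WT fitted alone (0.0453), leaving out WT replicate 4 (0.0488) and DESeq2 (adjusted p 0.0467). CEBPB was lower in OE than in KD by 0.25 (adjusted edgeR p 0.0419), a call lost without KD replicate 3 or 6 or any single OE library (adjusted p 0.0663 to 0.19).

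MTHFD2, the mitochondrial folate enzyme of one-carbon metabolism, was called higher in both altered groups. It had 47.9, 39.5, 43.1 and 45.5 CPM in WT, 57.4, 54.8, 53.6 and 50.04 CPM in KD, and 55.2, 52.2, 54.0 and 51.5 CPM in OE. All 8 altered libraries lay above all WT libraries. The log2 difference was 0.30 ± 0.08 in KD (adjusted edgeR p 0.00536) and 0.28 ± 0.08 in OE (adjusted edgeR p 0.017), and in OE it was lost without WT replicate 4 (adjusted p 0.114), WT replicate 5 (adjusted p 0.0598) or OE replicate 3 (adjusted p 0.0638). PSPH, the last enzyme of serine synthesis after PSAT1, was higher in OE than in KD by 0.24 (adjusted edgeR p 0.0144), and the mitochondrial one-carbon enzyme MTHFD1L lower by 0.33 (adjusted edgeR p 0.0196). Both were lost without KD replicate 6 (adjusted p 0.0737 and 0.074), PSPH also without OE replicate 6 (adjusted p 0.109) and MTHFD1L without OE replicate 4 (adjusted p 0.0808). GOT1, the cytosolic aspartate aminotransferase, rose in KD by 0.24 (adjusted edgeR p 0.00752) and was lower in OE than in KD by 0.20 (adjusted edgeR p 0.0243). The last call was lost without KD replicate 3 (adjusted p 0.0704), KD replicate 5 (adjusted p 0.0884), OE replicate 3 (adjusted p 0.0785) or OE replicate 5 (adjusted p 0.105). PYCR1, an enzyme of proline synthesis, was at -0.38 in OE against WT (adjusted edgeR p 0.0573, or 0.035 without KD replicate 3).

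Of the 10 amino acid transporters, 2 were called higher in KD and 1 in OE against WT, and 0 lower in either by edgeR or DESeq2 (0 in KD and 1 in OE at an unadjusted edgeR p under 0.05). Among all genes tested, edgeR called 3.84% higher and 5.22% lower in KD, and 2.13% higher and 2.87% lower in OE. SLC7A1, a carrier of arginine and lysine, was higher by 0.22 in KD (adjusted edgeR p 0.0341), a call lost on leaving out replicate 3, 4 or 6 of WT or replicate 3 or 6 of KD (adjusted p 0.0741 to 0.167), and lower in OE than in KD by 0.34 (adjusted edgeR p 0.000273). SLC3A2, the heavy chain of several amino acid exchangers, was higher by 0.15 in KD (adjusted edgeR p 0.0251), a call lost on leaving out replicate 5 or 6 of WT or replicate 6 of KD (adjusted p 0.051 to 0.123). SLC38A2, a carrier of neutral amino acids, rose in OE by 0.23 ± 0.05 (adjusted edgeR p 0.00188), with OE libraries at 330.5 to 366.4 CPM above WT libraries at 287.3 to 308.5 CPM. In KD it was at 0.10 (adjusted edgeR p 0.221), and at 0.16 without KD replicate 3 (adjusted edgeR p 0.0147). SLC7A5, the light chain that imports leucine, was lower in OE than in KD by 0.28 (adjusted edgeR p 0.0343), a call lost without KD replicate 3, 5 or 6 or OE replicate 3, 4 or 5 (adjusted p 0.0571 to 0.128). In the list of secreted factors and effectors, KLHL24 was higher in OE than in WT by 0.26 (adjusted edgeR p 0.0235), which was lost without WT replicate 3, 4 or 5 or OE replicate 4 (adjusted p 0.056 to 0.105), and HERPUD1, a factor of the degradation of misfolded proteins at the endoplasmic reticulum, was higher in OE than in KD by 0.20 (adjusted edgeR p 0.00155).

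Paralogs of the 10 genes were set beside them. TRIB2, another tribbles pseudokinase, had 25.3, 28.1, 29.5 and 26.9 CPM in WT, 38.6, 48.4, 35.5 and 36.7 CPM in KD, and 30.0, 25.2, 28.1 and 27.1 CPM in OE. KD libraries were all above the others, and OE libraries mixed with WT. TRIB2 rose in KD against WT by 0.53 ± 0.10 on the log2 scale (adjusted edgeR p 5.44e-05), had a difference of 0.01 in OE against WT with an adjusted edgeR p of 0.991, and was lower in OE than in KD by 0.53 ± 0.09 (adjusted edgeR p 3.61e-05). For TRIB3 the corresponding differences were 0.65 in KD against WT, 0.50 in OE against WT and -0.15 in OE against KD. TRIB1, a further tribbles paralog, was called in no comparison. It was at 0.51 ± 0.19 in KD against WT (adjusted edgeR p 0.0767, or 0.0314 without KD replicate 6). In OE it was at 0.38 ± 0.19 against WT (adjusted edgeR p 0.291) and at -0.13 ± 0.18 against KD (adjusted edgeR p 0.712). DDIT4L, the paralog of DDIT4, rose in KD by 0.26 ± 0.05 (adjusted edgeR p 4.31e-05) and was lower in OE than in KD by 0.20 (adjusted edgeR p 0.00121).

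**Figure D5:**
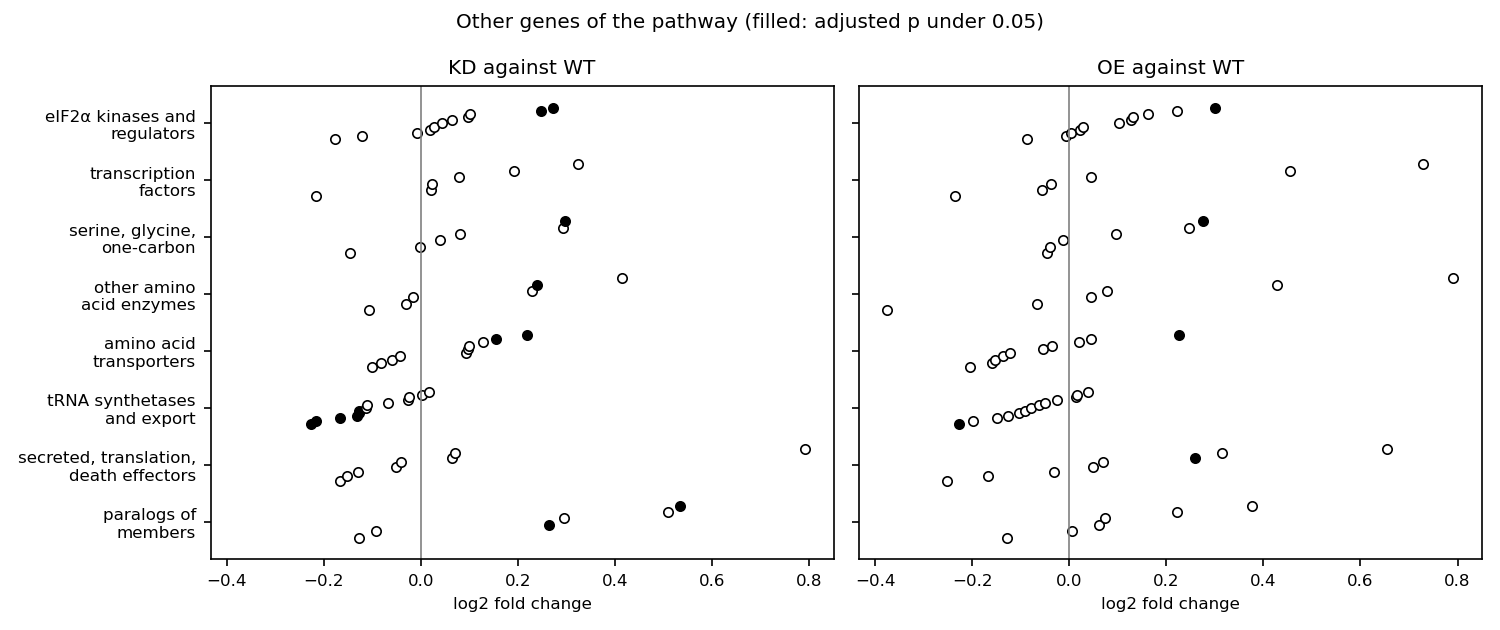
Each point is 1 of the 66 tested genes of the wider pathway, in rows by list, with the log2 fold change on the horizontal axis for KD against WT and OE against WT, filled where the adjusted p was under 0.05. The filled points on the negative side in KD all stand in the row of tRNA synthetases and export, which has a median of -0.11, and 1 such point is filled in OE.

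Genes outside the set were ranked by how alike their levels over the 12 libraries were to those of TRIB3. Among the 13009 protein-coding genes tested outside the set, Pearson's r of log2 CPM with TRIB3 was highest for PGD (0.936), SLC6A6 (0.928), OSGIN1 (0.926), HMCES (0.925) and ACLY (0.916). Over the same 12 libraries the other 9 genes of the set had r from -0.59 for PHGDH to 0.32 for DDIT4, with -0.29 for ATF4. These values describe the libraries, which share their groups, and carry no test. The highest of 13009 values cannot be set against the range of 9.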

How the data were processed

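RNA of 12 H295R libraries was sequenced, 4 each of WT, KD and OE. The authors deposited raw counts, whole numbers per Ensembl gene and library. The submitters' processing notes name GRCh38 and the tools FastQC, HISAT2 1.03, Subread, featureCounts and DESeq2. The sources used here give neither the annotation release, nor the strand setting, nor how reads with several matches were treated, so counts of overlapping genes are less certain.

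Genes were filtered by group with filterByExpr (minimum count 10, minimum total 15), which left 15916, and tested with edgeR 4.0.16 in R 4.3.3 (TMM factors, robust quasi-likelihood fit of all 12 libraries, 9 residual degrees of freedom, common biological coefficient of variation 7.38%). Benjamini-Hochberg adjustment covered every gene tested, and an adjusted p under 0.05 was called. Standard errors were derived from the log2 fold change and the F statistic. The test was checked on simulated data. RPKM used the merged exons of GENCODE 29. Correlations used log2 CPM with a prior count of 2 and all 13824 arrangements of libraries within groups, in Python 3.11.15 with scipy 1.17.1.

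Named are all 10 genes, up to 4 genes of each of 8 wider lists with the smallest adjusted p in any comparison, the nearest tested gene on each side of TRIB3 and VLDLR-AS1, and the 5 genes most like TRIB3. IARS1, YARS1, WARS1 and MARS1 were named after their values were seen. The genes, lists and tests were chosen with earlier results of these data known. Alternatives were RLE size factors, library sizes alone, DESeq2 1.42.0, no filter, a minimum count of 50, a replicate block, fits of single pairs of groups, leaving out mitochondrial genes, and leaving out each library.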

Additional observations from a re-analysis of the deposited data

Results flagged for a closer look

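In 7 of the 129 groups of 4 libraries looked at, 1 library lay far from the 3 others by Dixon's test at the 95% level. Chance gives about 1 in 20 such groups.

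TRIB3 in KD was highest in replicate 3, at 44.63 CPM against 35.71 to 36.56 CPM in the other KD libraries. All 4 were above every WT library. PHGDH in WT was lowest in replicate 6, at 224.4 CPM against 234.9 to 236.5 CPM. SESN2 in KD was lowest in replicate 4, at 19.36 CPM against 25.27 to 25.76 CPM. PPP1R15A was highest in WT replicate 5, at 56.32 CPM against 48.63 to 49.74 CPM, and in OE replicate 5, at 59.69 CPM against 55.63 to 56.3 CPM. NUPR1, a small stress-induced nuclear protein, was highest in OE replicate 6, at 2.176 CPM against 1.55 to 1.622 CPM. KLHL24 in OE was highest in replicate 4, at 55.87 CPM against 50.76 to 51.55 CPM, and its call in OE against WT was lost without that library (adjusted edgeR p 0.105).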

How the results depend on the processing

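TRIB3 was called higher against WT in KD, in OE and in their mean under every alternative run. Of the 3305 values of single genes under other settings, 3097 kept direction and side of the threshold, 114 lost and 36 gained a call, and 58 changed sign, none of which was called as reported. The cause of these changes was not tested. Genes with few counts limit the set most: the 95% intervals of ASNS and VLDLR-AS1 against WT hold rises as large as those of TRIB3 in both KD and OE, and that of DDIT4 does in OE. The interval of DDIT3, a gene with more counts, also does in OE, at 0.03 to 0.57.

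With library sizes alone, 967 genes were called higher in KD (611 as reported) and 624 lower (831), wider pathway genes called lower were 3 in KD and 2 for the mean of KD and OE against WT, those higher in OE against KD were 3, and PHGDH was no longer called for the mean, leaving 0 of the 10 lower. That scaling also turned the sign of log2 differences near 0 for SHMT2 (0.03 in KD, 0.003 for the mean), ATF4 (0.017) and SESN2 (0.013) in OE, and PSPH (0.003) and SLC7A5 (0.015) for the mean. With no filter on low counts, wider genes called lower were 3 in KD, 2 in OE and 3 for the mean, those higher in OE against KD were 3, and 1 of the 10 was higher in OE against KD. With a minimum count of 50, 2 wider genes were lower in OE, and with DESeq2 3. With only the groups compared in the fit, OE against WT had 534 genes higher (339 as reported) and 702 lower (457), 1 of the 10 lower and 6 wider genes lower, and OE against KD had 3 wider genes higher. Within 2 Mb the median of the neighbours of TRIB3 in OE against KD was -0.149.

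With single libraries left out, genes called higher ranged from 407 to 725 in KD and from 206 to 386 for the mean, the lowest without WT replicate 6 in KD (407), and 206 without WT replicate 3 or WT replicate 5. Of the 10, those called lower ranged from 0 to 3 in KD, 0 to 1 in OE and 0 to 1 for the mean, and those higher in OE against KD from 0 to 2. Wider genes ranged from 5 to 9 higher and 3 to 7 lower in KD, from 1 to 4 higher and 0 to 3 lower in OE, from 2 to 5 higher and 4 to 7 lower in OE against KD, and from 3 to 6 higher and 2 to 5 lower for the mean. Log2 differences that changed sign ranged in KD against WT from -0.046 to 0.263 for ASNS, -0.246 to 0.896 for VLDLR-AS1, -0.2 to 0.313 for DDIT4 and -0.041 to 0.053 for SHMT2. In OE against WT they ranged from -0.05 to 0.037 for ATF4, -0.174 to 0.058 for ASNS, -0.13 to 0.078 for SESN2, -0.007 to 0.075 for IMPACT, -0.025 to 0.035 for EIF2AK2, -0.091 to 0.027 for MTHFD1L, -0.013 to 0.035 for XPOT and -0.035 to 0.044 for TRIB2. In OE against KD they ranged from -0.017 to 0.079 for PHGDH, -0.007 to 0.108 for DELE1, -0.056 to 0.01 for MTHFD2 and -0.282 to 0.028 for BBC3. For the mean against WT they ranged from -0.048 to 0.16 for ASNS, -0.019 to 0.094 for SESN2, -0.004 to 0.045 for ATF5, -0.07 to 0.255 for NUPR1, -0.062 to 0.018 for PSPH, -0.043 to 0.003 for SHMT2 and -0.09 to 0.084 for SLC7A5. Without KD replicate 3 the within-group r of TRIB3 was 0.062 with ASNS and -0.018 with PHGDH.

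Same-numbered libraries of different groups did not deviate together (12 correlations from -0.033 to 0.071, against -0.085 to 0.072 for 36 pairs with different numbers). The labels do not say what the numbers mark, and a small effect shared by same-numbered libraries could go unseen, so whether they are paired stays unknown. A fit with the replicate number as a block called 557 genes higher and 770 lower in KD and 313 higher and 422 lower in OE against WT, and 1102 higher and 980 lower in OE against KD. It ended the calls of XPOT in KD (adjusted edgeR p 0.0649), YARS1 in KD (adjusted edgeR p 0.0541), AARS1 in OE against KD (adjusted edgeR p 0.07), and TRIB2 (adjusted edgeR p 0.0553) and WARS1 (adjusted edgeR p 0.0669) for the mean. It changed no other call of a gene named in the report.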
